A study of Mus musculus with 3 samples.

Results

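The genes described here are 10 genes of bone mineralization, Ibsp, Spp1, Dmp1, Mepe, Phex, Enpp1, Alpl, Bglap, Bglap2 and Ifitm5, chosen by symbol from the 32285 genes of the deposited count tables, and each symbol matched 1 row. They were measured by droplet single-cell RNA-seq in Alcam+Sca-1- bone lining cells (BLCs), the cells of the endosteal bone surface, from wild-type mice. The cells were released with collagenase from fragments of femora, tibias and iliac bones after the marrow had been flushed out, and were sorted as positive for Alcam and negative for Sca-1, CD45, Ter119 and CD31. All 3 libraries (replicates 1, 2 and 3) belong to this 1 group, with no treatment and no control group, and the labels give neither strain nor age and call the tissue bone marrow. The comparisons are therefore between cell populations within each library, and ask in which cells of the sorted fraction the mineralization genes were expressed.

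Mineral is laid down on a collagen matrix by osteoblasts, and on cartilage matrix by chondrocytes that enlarge and are later replaced by bone. The SIBLING proteins (small integrin-binding ligand N-linked glycoproteins) are acidic, phosphorylated matrix proteins that bind collagen, mineral and cell-surface integrins, and their genes lie next to each other in the genome. Tissue-nonspecific alkaline phosphatase (Alpl) breaks down pyrophosphate, an inhibitor of mineral growth, Enpp1 produces it, and Phex is a membrane endopeptidase whose loss causes phosphate wasting and soft bone. Osteocalcin (Bglap and its copy Bglap2) is a matrix protein secreted by osteoblasts, and Ifitm5 (also called BRIL) is a small membrane protein of osteoblasts that is mutated in a form of brittle bone disease.

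After filtering, 18232 cells were analysed (2476, 6363 and 9393 in replicates 1, 2 and 3). Bone-forming cells were the cells of the 1 mesenchymal cluster named osteoblast-like by its markers (949 cells, 32, 385 and 532 per library). The Ibsp-high chondrocytes were the chondrocyte-like cluster with the highest mean level of Ibsp (5271 cells, 82, 1906 and 3283). Only 2 of the 6 chondrocyte-like clusters had at least 10 cells in every library and could be ranked in this way. The other chondrocyte-like cells (6222 cells) are the remaining clusters of that name, and the rest is every cell in neither of the first populations (12012 cells, including those other chondrocyte-like cells). Because the Ibsp-high chondrocytes were picked by their Ibsp level, and the rest is made by taking them away, Ibsp is given without a test in every comparison. The members and 23 other mineralization genes were kept out of the genes used for clustering, but the clusters were made from other genes of the same cells, so a p-value here measures only how steady a difference was between the 3 libraries. The methods call the libraries independent samples without saying whether they came from separate animals.

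The clusters had been named from the cell type marker lists summed below, apart from the hypertrophy genes. These sums therefore describe the names and do not test them. All 8 osteoblast markers were detected in the bone-forming cells, with a summed level between 95161 and 168421 CPM (the counts of a gene relative to all counts of that population and library, scaled to a common total) against 2218 to 6599 CPM in the Ibsp-high chondrocytes. The 13 chondrocyte markers summed to between 17587 and 45531 CPM in the Ibsp-high chondrocytes and to between 1479 and 4881 CPM in the bone-forming cells. Col10a1, the collagen of hypertrophic cartilage, was at 409, 547 and 549 CPM in the Ibsp-high chondrocytes of replicates 1, 2 and 3 and at 7.90, 18.0 and 44.6 CPM in the other chondrocyte-like cells. The whole list of 6 hypertrophy genes, however, summed to 751 to 906 CPM in the Ibsp-high chondrocytes and to 859 to 1851 CPM in the bone-forming cells. The cluster is therefore called by its rule and not by a stage of cartilage. Osteoclast markers summed to between 56.1 and 105.5 CPM in the bone-forming cells, with Mmp9, Dcstamp and Calcr at 0. Macrophage markers summed to between 6.94 and 14.6 CPM there, with Adgre1, C1qa and C1qb at 0. Other lists were uneven in these cells. Plasma cell markers summed to 547, 4.17 and 7.32 CPM in replicates 1, 2 and 3, and tendon markers to 750, 50.0 and 74.1 CPM. Why replicate 1 stood higher was not tested.

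Depth and make-up differed between libraries and populations. The deposited tables held 20985636, 79905165 and 69890252 unique molecular identifiers (UMIs) in replicates 1, 2 and 3. Replicate 1 stood apart, with 95.4% of its cells in the rest, against 64.0% and 59.4%, and with few bone-forming and Ibsp-high cells. The rest was also another mixture there. Other chondrocyte-like cells were 64, 2726 and 3432 of its 2362, 4072 and 5578 cells in replicates 1, 2 and 3. Haematopoietic cells were 383, 111 and 202 of them. In the rest, chondrocyte markers summed to 2430, 58226 and 49332 CPM, and plasma cell markers to 54705, 153 and 30.2 CPM. Each comparison with the rest therefore pools unlike references. Bone-forming cells were shallow (median 1822 UMIs per cell, against 6660 in the Ibsp-high chondrocytes). Levels are therefore given as CPM of the summed counts of a population in a library, and shares of cells with a UMI after drawing 1000 UMIs from each cell, with shallower cells left out (175 bone-forming cells and 103 Ibsp-high chondrocytes). The libraries shared 5 cell barcodes between replicates 1 and 2, 9 between 1 and 3, and 28 between 2 and 3. The haematopoietic cells left by the sort (696 cells, median 12680 UMIs) serve as a rough guide to free RNA. This holds only for genes that they do not express themselves, which was not tested.

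All coordinates are of mouse build GRCm38. The 4 SIBLING genes measured here follow each other on the plus strand of chromosome 5, Dmp1 (chr5:104202613-104214102), Ibsp (chr5:104299171-104311469), Mepe (chr5:104325329-104338611) and Spp1 (chr5:104435118-104441050), with gaps of 85.1, 13.9 and 96.5 kb and no other protein-coding gene between them. Spp1 overlaps Gm42793, a transcript model on the same strand. On the minus strands lie Phex (chrX:157162075-157415312), Enpp1 (chr10:24637914-24712159), Alpl (chr4:137741733-137796384) and Ifitm5 (chr7:140948958-140950291), the last overlapping the coding gene Gm45717 on the same strand. Bglap (chr3:88383501-88384464) and Bglap2 (chr3:88377736-88378699) are neighbouring copies. Of all stretches of 90 bases in their transcripts, 60.4% for Bglap and 63.4% for Bglap2 are found unchanged in another copy, so the split of reads between these copies is uncertain.

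The sequences just before the annotated starts are shown for the 4 neighbouring SIBLING genes and for Bglap, the osteocalcin gene. The SIBLING genes lie side by side but were not all highest in the same population. They are from RefSeq (GRCm38.p6), 5′ to 3′ on the strand of the gene, and end before the first annotated exon. Capitals mark ACCACA, a core bound by RUNX transcription factors such as Runx2, and its reverse complement TGTGGT, the only motif searched, on both strands.
Dmp1, chr5:104202367-104202612, plus strand: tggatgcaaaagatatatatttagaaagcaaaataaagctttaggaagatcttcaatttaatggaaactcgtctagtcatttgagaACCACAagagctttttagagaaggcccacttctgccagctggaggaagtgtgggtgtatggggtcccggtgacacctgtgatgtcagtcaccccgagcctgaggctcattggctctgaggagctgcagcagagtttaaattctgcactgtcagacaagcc
Ibsp, chr5:104299037-104299170, plus strand: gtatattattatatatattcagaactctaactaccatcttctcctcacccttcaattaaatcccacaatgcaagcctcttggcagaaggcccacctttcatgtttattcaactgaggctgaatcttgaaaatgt
Mepe, chr5:104325079-104325328, plus strand: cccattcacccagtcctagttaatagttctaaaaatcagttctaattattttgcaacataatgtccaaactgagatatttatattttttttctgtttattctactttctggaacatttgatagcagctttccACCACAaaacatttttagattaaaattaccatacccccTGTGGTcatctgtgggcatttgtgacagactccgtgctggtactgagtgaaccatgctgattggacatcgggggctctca
Spp1, chr5:104434861-104435110, plus strand: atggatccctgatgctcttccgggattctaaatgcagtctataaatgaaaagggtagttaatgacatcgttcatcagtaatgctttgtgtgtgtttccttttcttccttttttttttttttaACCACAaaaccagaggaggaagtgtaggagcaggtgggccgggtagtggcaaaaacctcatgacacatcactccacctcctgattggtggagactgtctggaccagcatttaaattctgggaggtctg
Bglap, chr3:88384467-88384716, minus strand: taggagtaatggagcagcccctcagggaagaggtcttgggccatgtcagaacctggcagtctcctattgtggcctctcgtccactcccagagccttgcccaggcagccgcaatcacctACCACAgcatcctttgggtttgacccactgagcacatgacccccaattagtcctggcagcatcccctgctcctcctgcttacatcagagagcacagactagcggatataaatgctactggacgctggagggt
The 2 matches of Mepe lie on opposite strands, and those of Dmp1, Spp1 and Bglap are each the 1 match of their window. Windows were found for 9 of the 10 members, 12 windows in all, of which 5 held the motif, those of Dmp1, Mepe, Spp1, Bglap and Enpp1. Of all 32851 windows of 250 bases in the table, 14.0% held it. Dmp1 and Spp1 each had a second annotated start, with windows at chr5:104197325-104197574 and chr5:104435942-104436191 that held no match and are not printed. A match describes the letters only, and the window of Ibsp is shorter than the others.

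The SIBLING genes and the other members did not follow 1 pattern. Dmp1, Phex, Bglap, Bglap2 and Ifitm5 were higher in the bone-forming cells than in the Ibsp-high chondrocytes and the rest, whereas Ibsp, Spp1, Mepe, Enpp1 and Alpl were higher in the Ibsp-high chondrocytes than in the bone-forming cells, Ibsp by the choice of that cluster. All 10 members passed the filter on low counts. Between bone-forming cells and Ibsp-high chondrocytes, 5 of the 9 members tested were higher and 4 lower in the bone-forming cells at an edgeR adjusted p of 0.05, where 32.1% of all 16680 genes tested were called in either direction. The median log2 fold change of these 9 was 4.32, beside -0.09 over all genes. Against the rest, 8 of the 9 members tested were higher and 1 lower in the bone-forming cells (background 35.7% of genes called, 15.2% higher and 20.5% lower), with a median of 4.76 beside -0.24 over all genes. The Ibsp-high chondrocytes were higher than the rest in 5 of 9 members and lower in none, with 4 not called (background 30% in either direction, 11.4% higher). They were higher than the other chondrocyte-like cells in 6 of 9, with 3 not called (background 50.6% in either direction, 25% higher). The medians in these 2 comparisons were 1.08 and 1.86, beside -0.09 and 0.00 over all genes.

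**Figure D1:**
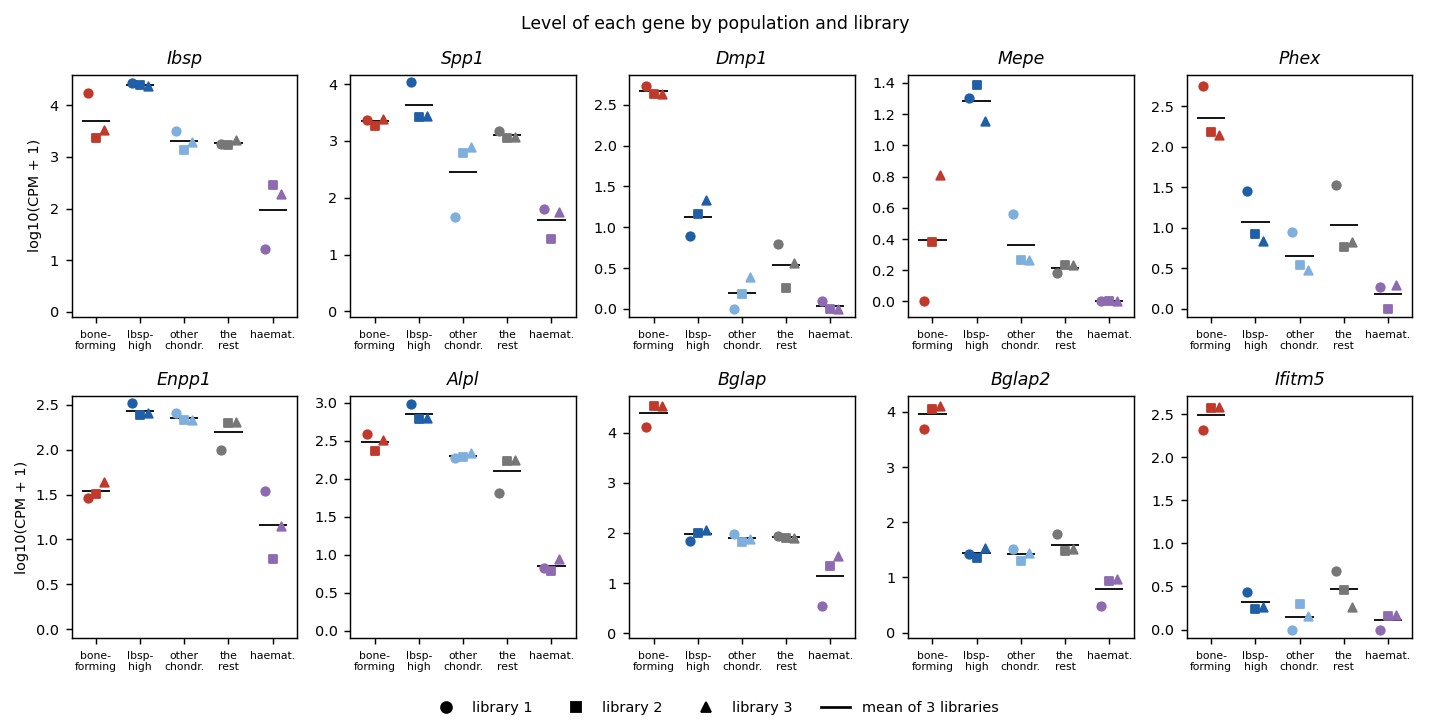
Level of each member (CPM of the summed counts, log axis) in the bone-forming cells, Ibsp-high chondrocytes, other chondrocyte-like cells, the rest and haematopoietic cells, where each point is 1 of the 3 libraries and each line the mean of the log values. Bglap, Bglap2, Dmp1 and Ifitm5 stand alone in the bone-forming cells, while Ibsp, Alpl and Mepe peak in the Ibsp-high chondrocytes.

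Ibsp encodes bone sialoprotein, which binds collagen and starts crystal growth. Its level in the Ibsp-high chondrocytes was 27281, 24423 and 23805 CPM in replicates 1, 2 and 3. In the bone-forming cells it was 17637, 2280.2 and 3264 CPM, and in the other chondrocyte-like cells 3167, 1393 and 1922 CPM. Replicate 1 was the highest library in each of these populations, and the Ibsp-high and bone-forming values did not overlap. As a description of the choice, the log2 difference between bone-forming cells and Ibsp-high chondrocytes was -2.29 (SE 0.46). The bone-forming value of replicate 1 came mostly from 1 cell, which held 87.9% of the 2516 Ibsp UMIs of that population and had 13183 UMIs, against a median of 3414 in the other 31 cells. The Ibsp-rich cell held 1 of the 1893 Bglap UMIs of that population, 2 Dmp1 and 7 Ifitm5 UMIs, and 0 of Bglap2 and Phex. Without this cell the Ibsp level was 2356 CPM, beside the other 2 libraries. The rest was at 1773, 1734 and 2109 CPM, and the log2 difference of the bone-forming cells from it, 1.75 (SE 0.45), is also a description, since the cluster with the most Ibsp had been taken out of the rest. It was 0.53 without the 1 cell and -0.71 when cells were limited to 10% mitochondrial UMIs. In every alternative that changed the cell filter or the clustering, here and below, the cells were clustered anew and the populations chosen again. The Ibsp-high chondrocytes were then 45, 773 and 1457 cells under the 10% limit, and 16, 738 and 1380 at a finer clustering. The other chondrocyte-like cells were 176, 3616 and 5236 under the 10% limit. Over all cells together Ibsp was at 2622, 7213 and 8988 CPM, above the bone-forming value in replicates 2 and 3.

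Shares of cells gave the same order for Ibsp. After thinning to 1000 UMIs, an Ibsp UMI was found in 56.2, 82.9 and 83.1% of the Ibsp-high chondrocytes of replicates 1, 2 and 3, and without thinning in 73.2, 94.9 and 93.6%. In the bone-forming cells the thinned shares were 53.3, 62.8 and 67.7% (unthinned 65.6, 82.9 and 80.5%). The other chondrocyte-like cells had 23.8, 18.3 and 24.9%, and the haematopoietic cells, which should lack the gene, 2.37, 9.09 and 18.8%. By level the other chondrocyte-like cells exceeded the haematopoietic cells, at 15.3, 281 and 187 CPM, in each library, and the part of free RNA was not tested. Most of the Ibsp UMIs of the series lay in the Ibsp-high chondrocytes in replicates 2 and 3 (30.02%, 81.6% and 83.7% in replicates 1, 2 and 3), and 4.78, 0.630 and 0.658% in the bone-forming cells.

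Spp1 encodes osteopontin, a SIBLING protein that inhibits mineral growth and anchors osteoclasts. It was measured at 2362, 1853 and 2481 CPM in the bone-forming cells and at 10736, 2683 and 2754 CPM in the Ibsp-high chondrocytes of replicates 1, 2 and 3. The groups did not overlap, but the lowest Ibsp-high library lay close to the highest bone-forming library, and replicate 1 stood far above the other Ibsp-high values. The top 5 cells of replicate 1 held 63.6% of its Spp1 UMIs. Spp1 was lower in the bone-forming cells (log2 fold change -1.08, SE 0.36, edgeR adjusted p = 0.0383). It was higher in the Ibsp-high chondrocytes than in the rest (2.16, SE 0.37, edgeR adjusted p = 0.000833) and than in the other chondrocyte-like cells (3.60, SE 0.80, edgeR adjusted p = 0.0022), where its level was 44.8, 619.9 and 784 CPM. The thinned shares of cells with an Spp1 UMI, 33.3, 36.1 and 39.0% of bone-forming cells and 41.2, 29.7 and 35.1% of Ibsp-high chondrocytes, overlapped between these populations and lay above the 2.90, 2.73 and 7.11% of haematopoietic cells. Against the rest, Spp1 in the bone-forming cells was at a log2 fold change of 1.08 (SE 0.35, edgeR adjusted p = 0.031). The same single cell of replicate 1 held 79.2% of the 337 Spp1 UMIs there, and without it the difference was 0.57 (edgeR adjusted p = 0.443). Over all 17 alternatives of this comparison (edgeR, and DESeq2 as 1 of them) the adjusted p ranged from 3.89e-12 to 0.948. The difference from the Ibsp-high chondrocytes fell to -0.18 (edgeR adjusted p = 0.763) without the cell filter and to -0.35 (edgeR adjusted p = 0.557) at a finer clustering.

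Dmp1, a SIBLING protein of late osteoblasts and osteocytes that binds mineral and restrains Fgf23, was found mainly in the bone-forming cells. Its level there was 539.8, 424 and 429 CPM in replicates 1, 2 and 3. It was 6.90, 13.3 and 20.8 CPM in the Ibsp-high chondrocytes and 5.27, 0.786 and 2.69 CPM in the rest. Every bone-forming library lay above every other value, and the Ibsp-high chondrocytes lay above the rest (log2 fold change 3.04, SE 0.51, edgeR adjusted p = 0.000767). In the bone-forming cells the log2 fold change was 4.73 against the Ibsp-high chondrocytes (SE 0.49, edgeR adjusted p = 2.18e-05) and 7.77 against the rest (SE 0.56, edgeR adjusted p = 2.05e-06). A minority of bone-forming cells carried it, with thinned shares of 20, 13.8 and 17.6% and unthinned shares of 28.1, 24.4 and 25.9%. Dmp1 was also higher in the Ibsp-high chondrocytes than in the other chondrocyte-like cells (0, 0.538 and 1.44 CPM, log2 fold change 4.40, SE 0.33, edgeR adjusted p = 2.08e-07), at thinned shares of 0%, 1.06% and 1.498% of cells. The Ibsp-high chondrocytes, far more numerous than the bone-forming cells in replicates 2 and 3, held 26.2% and 40.7% of all Dmp1 UMIs in those libraries.

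Mepe, a SIBLING protein of osteocytes whose cleaved peptide inhibits mineralization, was the scarcest member. It was found at 19.0, 23.2 and 13.4 CPM in the Ibsp-high chondrocytes (11, 405 and 256 UMIs) and at 0, 1.39 and 5.49 CPM in the bone-forming cells (0, 2 and 6 UMIs). In replicates 2 and 3 the Ibsp-high value was the higher one. In replicate 1 no difference was detectable at this depth, since a count of 0 among the 32 bone-forming cells allows up to 21.0 CPM. The log2 fold change of bone-forming cells against Ibsp-high chondrocytes was -2.64 (SE 0.52, edgeR adjusted p = 0.00201), with an adjusted p of 0.0983 without replicate 2, the highest of 16 alternatives. The Ibsp-high chondrocytes exceeded the rest (0.517, 0.711 and 0.721 CPM) by a log2 fold change of 5.04 (SE 0.31, edgeR adjusted p = 6.22e-07) and the other chondrocyte-like cells by 4.72 (SE 0.23, edgeR adjusted p = 4.24e-09). Few cells carried it, with a Mepe UMI in 1.22, 3.25 and 2.47% of the Ibsp-high chondrocytes without thinning. In replicate 1 all 11 UMIs came from 1 cell, and in replicate 2 the highest cell held 33.6% of 405 UMIs. The Ibsp-high chondrocytes held 52.4, 91.0 and 88.0% of all Mepe UMIs in replicates 1, 2 and 3. Bone-forming cells against the rest gave 2.40 (SE 0.79, edgeR adjusted p = 0.0328, with 2 of 3 libraries on that side), which rested on 8 UMIs and was 0.95 (edgeR adjusted p = 0.666) without replicate 3. Over the 17 alternatives of this comparison (edgeR, and DESeq2 as 1 of them) the adjusted p ranged from 0.00557 to 0.768.

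**Figure D2:**
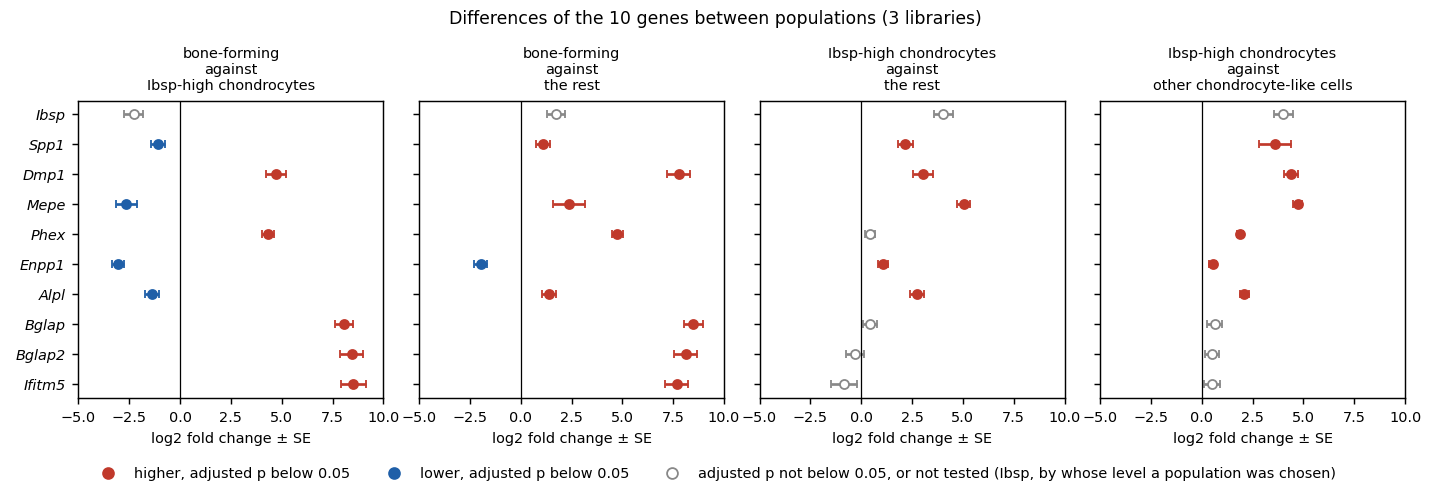
Log2 fold change of each member with its standard error in the 4 comparisons between populations, with Ibsp drawn as untested in each. Bglap, Bglap2 and Ifitm5 lie between 7.67 and 8.52 in both comparisons of the bone-forming cells, and Enpp1, Mepe, Ibsp, Alpl and Spp1 lie on the side of the Ibsp-high chondrocytes when those are compared with the bone-forming cells.

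The product of Phex keeps SIBLING-derived peptides and Fgf23 in check. Its level was 568, 153 and 137 CPM in the bone-forming cells, 27.6, 7.52 and 5.82 CPM in the Ibsp-high chondrocytes and 32.5, 4.83 and 5.67 CPM in the rest. All bone-forming libraries lay above all of these, with a log2 fold change of 4.32 against the Ibsp-high chondrocytes (SE 0.27, edgeR adjusted p = 6.97e-07) and 4.76 against the rest (SE 0.27, edgeR adjusted p = 4.27e-07). The high value of replicate 1 came from 1 cell, other than the one rich in Ibsp, which held 93.8% of its 81 Phex UMIs. Without this cell 5 UMIs were left in the other 31 cells, or 36.6 CPM, beside 32.5 CPM in the rest and 27.6 CPM in the Ibsp-high chondrocytes of that library, so the difference in replicate 1 rested on it. The log2 fold changes over the 3 libraries were then 3.90 against the Ibsp-high chondrocytes (edgeR adjusted p = 0.000651) and 4.17 against the rest (edgeR adjusted p = 0.000526). Over all alternatives (edgeR, and DESeq2 as 1 of them) the adjusted p ranged from 4.38e-49 to 0.00336 in the first comparison (16 alternatives). In the second it ranged from 1.87e-72 to 0.00313 (17 alternatives). In replicates 2 and 3 the highest cell held 19.5% and 12.7%. Phex UMIs were seen in 3.33, 9.38 and 8.19% of bone-forming cells after thinning and in 2.50, 0.690 and 0.499% of Ibsp-high chondrocytes. Outside the bone-forming cells Phex was measured at 148 ± 10.7 CPM (SD, n = 3) in the CAR-like cluster (cells like Cxcl12-abundant reticular cells of the marrow). This cluster overlapped the bone-forming values and lay above every other population with at least 10 cells in every library. Between Ibsp-high chondrocytes and the rest, Phex differed by 0.44 (SE 0.26, edgeR adjusted p = 0.22), and its sign was negative in 2 of 17 alternatives, whereas without replicate 1 it was called (0.78, edgeR adjusted p = 6.47e-05). Against the other chondrocyte-like cells it was higher (1.86, SE 0.15, edgeR adjusted p = 2.94e-07), at 16, 131 and 111 against 3, 100 and 59 UMIs, but was not called with cells limited to 10% mitochondrial UMIs (1.08, edgeR adjusted p = 0.0902) or at a finer clustering (1.20, edgeR adjusted p = 0.0918).

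Both enzymes that set the level of pyrophosphate were higher in the Ibsp-high chondrocytes than in the bone-forming cells. Alpl, which removes pyrophosphate, was at 965, 616 and 627 CPM in the Ibsp-high chondrocytes, 393, 231 and 323 CPM in the bone-forming cells and 187, 195 and 218 CPM in the other chondrocyte-like cells. The 3 sets did not overlap. Alpl in the Ibsp-high chondrocytes also exceeded the rest, at 64.1, 169.5 and 176 CPM (log2 fold change 2.76, SE 0.35, edgeR adjusted p = 0.000105). It was lower in the bone-forming cells than in the Ibsp-high chondrocytes (log2 fold change -1.37, SE 0.34, edgeR adjusted p = 0.00872) and higher than in the rest (1.39, SE 0.34, edgeR adjusted p = 0.00759). It was also higher in the Ibsp-high chondrocytes than in the other chondrocyte-like cells (2.10, SE 0.21, edgeR adjusted p = 2.58e-06). At most 10% mitochondrial UMIs, the difference of the bone-forming cells from the rest was 0.74 (edgeR adjusted p = 0.245), and at a finer clustering that from the Ibsp-high chondrocytes was -1.03 (edgeR adjusted p = 0.171). An Alpl UMI was found after thinning in 30, 29.1 and 32.3% of Ibsp-high chondrocytes, 20, 19.4 and 23.6% of bone-forming cells, 7.94, 13.7 and 14.6% of other chondrocyte-like cells and 1.06, 0.909 and 3.05% of haematopoietic cells. In share of cells, too, the Ibsp-high chondrocytes lay above the bone-forming cells in every library.

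Enpp1, the enzyme that makes pyrophosphate, was the 1 member lower in the bone-forming cells than in the rest. Its level was 28.0, 31.2 and 43.0 CPM in the bone-forming cells, 326, 244 and 252 CPM in the Ibsp-high chondrocytes, 256, 214 and 213 CPM in the other chondrocyte-like cells and 97.0, 195 and 201 CPM in the rest. The bone-forming values lay below all of these, at log2 fold changes of -3.05 against the Ibsp-high chondrocytes (SE 0.31, edgeR adjusted p = 1.79e-05) and -1.98 against the rest (SE 0.30, edgeR adjusted p = 0.000395, and -0.67 with an adjusted p of 0.142 at a finer clustering). The haematopoietic cells were at 33.5, 5.06 and 13.1 CPM, near the bone-forming value in replicate 1 and below it in the others. Their Enpp1 was thus highest in replicate 1, where their Ibsp was lowest (15.3 CPM, against 281 and 187 CPM). Whether they express Enpp1 themselves was not tested. Between both kinds of chondrocyte the levels were near each other, with a log2 fold change of 0.55 for the Ibsp-high chondrocytes against the others (SE 0.17, edgeR adjusted p = 0.0151) that lost its call in 5 of 16 alternatives, among them without replicate 2 (edgeR adjusted p = 0.371) and without replicate 3 (edgeR adjusted p = 0.355). Against the rest the Ibsp-high chondrocytes were higher by 1.08 (SE 0.26, edgeR adjusted p = 0.00715), a call lost in 3 of 17 alternatives, namely without the replicate block (edgeR adjusted p = 0.0668), without the cell filter (0.065) and at a finer clustering (0.0723). The thinned shares, 25, 22.9 and 22.9% and 33.3, 19.9 and 19.7%, did not keep 1 order over the libraries. In replicates 2 and 3 the other chondrocyte-like cells held 59.3% and 47.1% of its UMIs, more than the 28.9% and 37.2% of the Ibsp-high chondrocytes. In replicate 1, with few chondrocytes, these shares were 4.69% and 9.13%, and cells outside the bone-forming and chondrocyte-like clusters held 86.0%.

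Bglap, which encodes osteocalcin, was among the members with the widest gap between the bone-forming cells and the other populations. Its level was 13270, 34390.5 and 34617 CPM in the bone-forming cells, 69.0, 100.05 and 114 CPM in the Ibsp-high chondrocytes and 87.6, 76.9 and 77.9 CPM in the rest. Replicate 1 was the lowest bone-forming library and still lay far above every other value. Bglap was higher by a log2 fold change of 8.05 than in the Ibsp-high chondrocytes (SE 0.45, edgeR adjusted p = 3.28e-07) and 8.49 than in the rest (SE 0.45, edgeR adjusted p = 2.75e-07). Bone-forming cells were 1.29%, 6.05% and 5.66% of the cells of replicates 1, 2 and 3 and held 52.2, 89.4 and 87.7% of all Bglap UMIs. A Bglap UMI was seen after thinning in 83.3, 96.8 and 96.3% of bone-forming cells and in 2.50, 6.37 and 6.62% of Ibsp-high chondrocytes, beside 0.528, 6.36 and 2.03% of haematopoietic cells. In replicate 2 the chondrocyte and haematopoietic shares were almost equal, while the levels were 100.05 and 21.1 CPM, and the part of free RNA was not tested. Between Ibsp-high chondrocytes and the rest Bglap was not called (0.43, SE 0.34, edgeR adjusted p = 0.37), but it was higher in 3 of 17 alternatives, without replicate 1 (0.90, edgeR adjusted p = 4.67e-09), with cells limited to 10% mitochondrial UMIs (2.58, edgeR adjusted p = 0.00585) and at a finer clustering (1.38, edgeR adjusted p = 0.039). Against the other chondrocyte-like cells, likewise not called, it was higher in 4 of 16 alternatives.

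Bglap2 behaved like its copy. It was at 4998, 11273 and 12987 CPM in the bone-forming cells, 25.9, 21.6 and 33.7 CPM in the Ibsp-high chondrocytes and 61.0, 29.6 and 31.2 CPM in the rest. The log2 fold change was 8.44 against the Ibsp-high chondrocytes (SE 0.57, edgeR adjusted p = 9.96e-07) and 8.12 against the rest (SE 0.56, edgeR adjusted p = 1.49e-06), with no overlap in either comparison. Against the other chondrocyte-like cells it was not called in the Ibsp-high chondrocytes, but was higher in 2 of 16 alternatives, without replicate 1 (0.56, edgeR adjusted p = 0.00034) and with cells limited to 10% mitochondrial UMIs (2.85, edgeR adjusted p = 0.0326). In the bone-forming cells there were 0.377, 0.328 and 0.375 Bglap2 UMIs for each Bglap UMI in replicates 1, 2 and 3, a ratio that the shared sequence of these copies can move.

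Ifitm5 was carried by a minority of the bone-forming cells, with thinned shares of 20, 18.5 and 20.1% and unthinned shares of 37.5, 35.1 and 32.3%. Its level was 203, 369 and 383 CPM in the bone-forming cells and 1.73, 0.746 and 0.838 CPM in the Ibsp-high chondrocytes, where it rested on 1, 13 and 16 UMIs. The bone-forming libraries lay above all others, by a log2 fold change of 8.52 against the Ibsp-high chondrocytes (SE 0.63, edgeR adjusted p = 1.88e-06) and 7.67 against the rest (SE 0.55, edgeR adjusted p = 2.04e-06). In replicates 2 and 3 the bone-forming cells held 82.2% and 89.3% of its UMIs, against 27.9% in replicate 1. No difference was called between Ibsp-high chondrocytes and the rest (-0.85, SE 0.63, edgeR adjusted p = 0.339) or the other chondrocyte-like cells (0.50, SE 0.40, edgeR adjusted p = 0.318). With cells limited to 10% mitochondrial UMIs, where the populations were drawn anew, both differences were called (1.76, edgeR adjusted p = 0.0499, and 2.84, edgeR adjusted p = 0.00439).

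**Figure D3:**
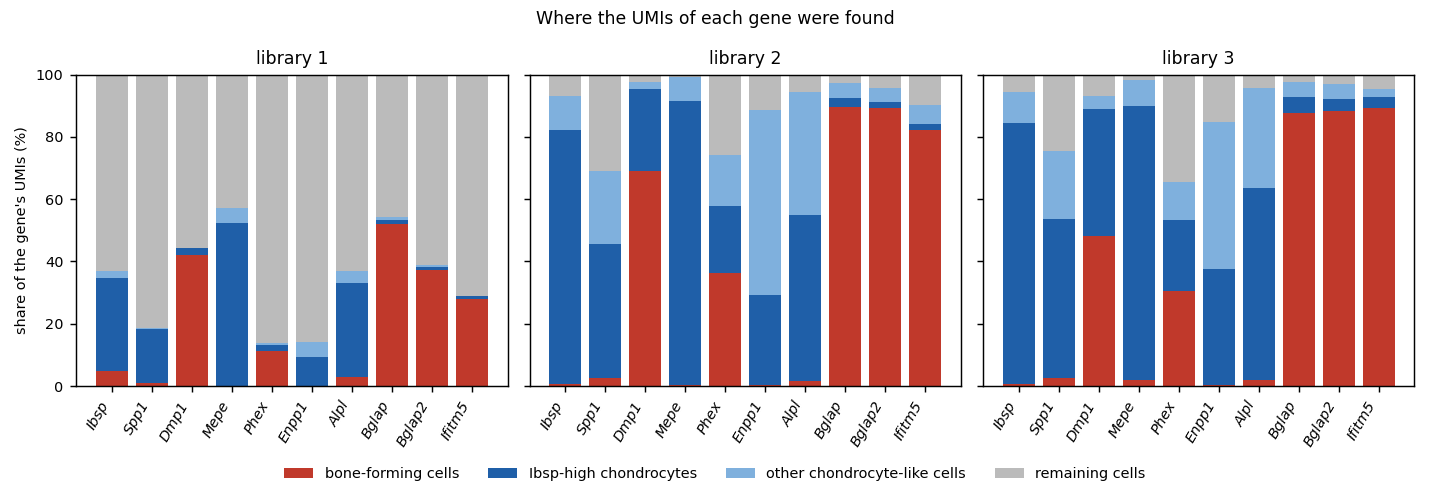
Share of all UMIs of each member (percent of the library's UMIs of that gene) that fell in the bone-forming cells, the Ibsp-high chondrocytes, the other chondrocyte-like cells and the remaining cells, drawn for replicates 1, 2 and 3. In replicates 2 and 3 the bone-forming cells hold 82.2% to 89.4% of Bglap, Bglap2 and Ifitm5, the Ibsp-high chondrocytes 81.6% to 91.0% of Ibsp and Mepe, and in replicate 1 the remaining cells hold much of several members.

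Populations with at least 10 cells in every library were put in order (8 of the 16 mesenchymal clusters, the haematopoietic cells and the other non-mesenchymal cells). Smaller or unevenly spread clusters were left out, among them a chondrocyte-like cluster of 2313 cells. This order placed the members in more than 2 groups. For Ibsp the Ibsp-high chondrocytes came first (25169.6 ± 1854 CPM, SD, n = 3), without overlap with the fibroblast-like cluster (11471 ± 3676 CPM), which overlapped the CAR-like cluster (7964 ± 4280.0 CPM) and the bone-forming cells (7727 ± 8597 CPM). Spp1 was led by a tendon-like cluster (6988 ± 718 CPM) and the fibroblast-like cluster (6031 ± 2158 CPM), ahead of the Ibsp-high chondrocytes (5391 ± 4629 CPM), and neighbours in this order overlapped down to the bone-forming cells in the sixth place. Dmp1 was highest in the bone-forming cells (464 ± 65.6 CPM), without overlap with the tendon-like cluster next in order (26.5 ± 19.4 CPM). The same tendon-like cluster stood second for Bglap (640.0 ± 241 CPM), Bglap2 (692 ± 325 CPM) and Ifitm5 (15.6 ± 9.59 CPM), in each case without overlap with the bone-forming cells above it (27426 ± 12259.8, 9753 ± 4206 and 319 ± 100.1 CPM).

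For Mepe and Alpl the Ibsp-high chondrocytes were alone at the top of this order. Mepe was at 18.5 ± 4.93 CPM there and at 2.41 ± 0.932 CPM in the next chondrocyte-like cluster. Alpl was at 736 ± 198 CPM, followed by the fibroblast-like cluster (361 ± 128 CPM), the bone-forming cells (316 ± 80.9 CPM) and the tendon-like cluster (276 ± 109 CPM), which overlapped one another. For Enpp1 the first 4 populations could not be told apart by their spread, namely the Ibsp-high chondrocytes (274 ± 45.3 CPM), the fibroblast-like cluster (267 ± 38.3 CPM), a chondrocyte-like cluster (263 ± 16.0 CPM) and an unnamed mesenchymal cluster (255 ± 47.2 CPM). The bone-forming cells came eighth of 10 for this gene (34.1 ± 7.87 CPM).

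**Figure D4:**
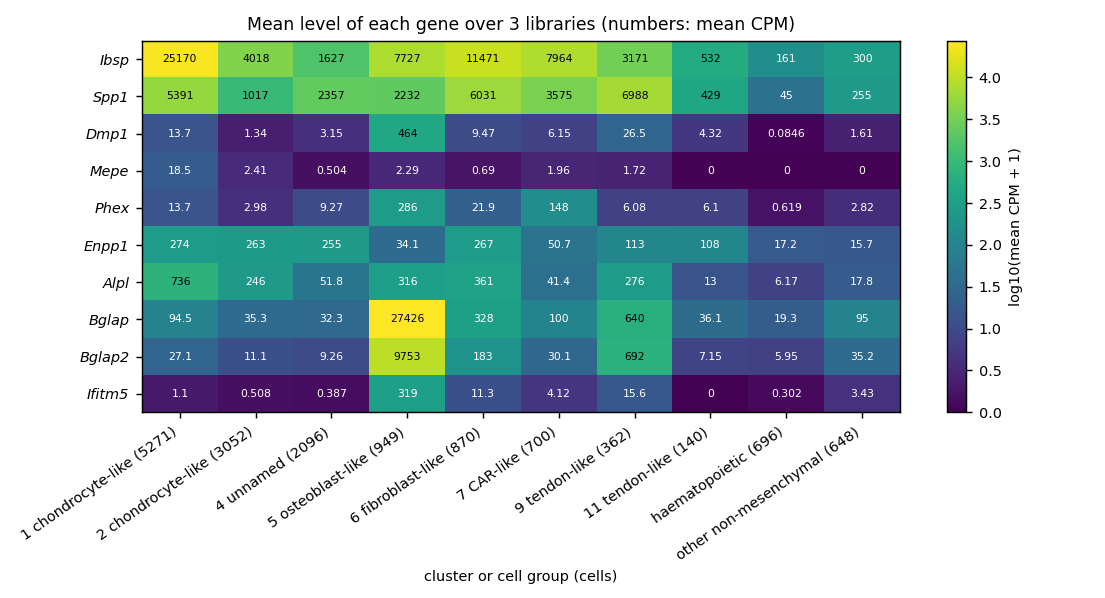
Heat map of the mean level of each member over 3 libraries (colour on a log scale, mean CPM printed) in every population with at least 10 cells in all 3 libraries. The bone-forming cells have the highest mean for Bglap, Bglap2, Dmp1, Ifitm5 and Phex, and the Ibsp-high chondrocytes for Ibsp, Mepe, Alpl and Enpp1. The spread between libraries is not drawn.

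Within the bone-forming cells the members varied from cell to cell. At 1000 UMIs per cell, a bone-forming cell held a UMI of 2.97, 3.51 and 3.69 members on average in replicates 1, 2 and 3, against 1.64, 1.76 and 1.85 in the Ibsp-high chondrocytes and 0.113, 0.2 and 0.32 in the haematopoietic cells. The median cell had 7, 24 and 25 Bglap UMIs per 1000. In the Ibsp-high chondrocytes the median cell had 2.5, 10 and 11 Ibsp UMIs per 1000, while the cell at the 90th percentile had 72.1, 60 and 64, so the level of the population was carried unevenly.

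**Figure D5:**
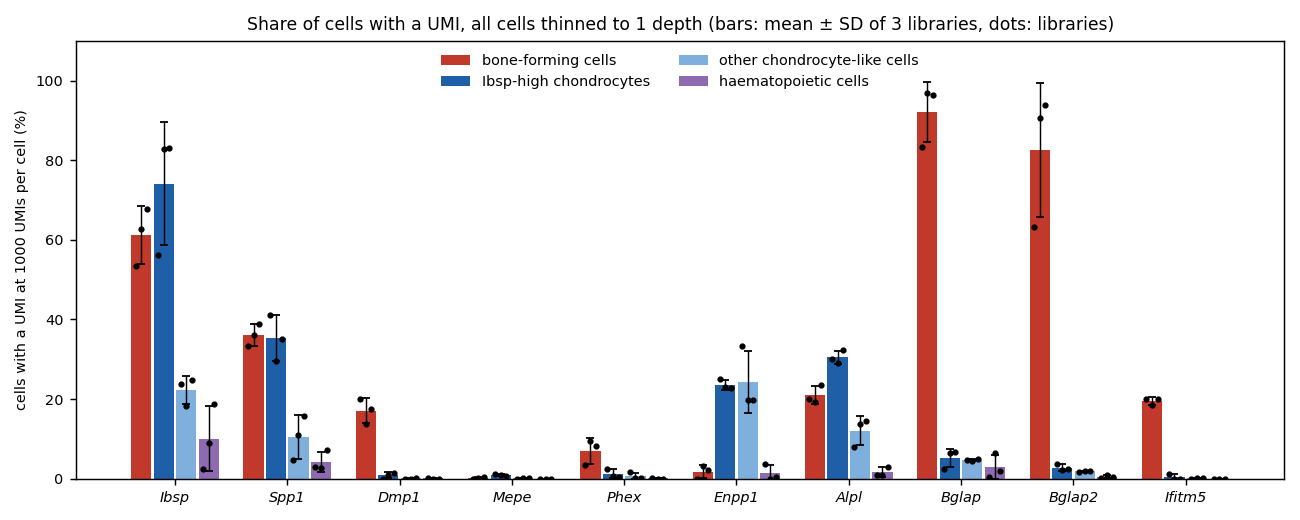
Percent of cells with at least 1 UMI of each member after thinning to 1000 UMIs per cell, with 1 point per library, for the bone-forming cells, both kinds of chondrocyte and the haematopoietic cells. Bglap reaches 83.3% to 96.8% of bone-forming cells and Ibsp 56.2% to 83.1% of Ibsp-high chondrocytes, whereas Mepe stays at or below 1.25% in both.

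Members were compared in the same cells, as a description without a test, since cells of 1 library are not replicates. Among Ibsp-high chondrocytes, cells with an Alpl UMI held on average 54.6, 42.3 and 41.4 Ibsp UMIs per 1000 in replicates 1, 2 and 3, and cells without one 4.27, 13.6 and 13.1. The same cells held 22.3, 4.98 and 4.85 Spp1 UMIs per 1000 with Alpl, against 1.77, 1.46 and 1.40 without. An Enpp1 UMI was seen in 25%, 24.0% and 23.2% of the Alpl-positive and 25%, 22.5% and 22.7% of the Alpl-negative cells. Among bone-forming cells, Phex was seen in 21.3% and 14.1% of those with a Dmp1 UMI and in 7.48% and 6.93% of those without in replicates 2 and 3 (replicate 1 had 6 cells with Dmp1 and none of them held Phex). Cells with an Ifitm5 UMI held more Bglap in replicates 2 and 3 (51.9 against 30.2 and 48.0 against 30.6 UMIs per 1000) and the share of them with a Dmp1 UMI was 11.1% against 14.4% and 11.1% against 19.3%. These Ifitm5-positive cells were deeper before thinning (median 3627 against 2589 UMIs and 2395 against 1741), and the part of depth was not tested.

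The other 23 mineralization genes were examined as lists. Between bone-forming cells and Ibsp-high chondrocytes, 19 could be tested, of which 8 were higher and 7 lower in the bone-forming cells and 4 were not called (background 32.1% of genes called), with a median log2 fold change of -0.60 beside -0.09 over all genes. Of 8 tested genes for the handling of pyrophosphate and phosphate, 2 were higher and 4 lower. The lower ones were the pyrophosphate transporter Ank (-2.73, SE 0.25), the phosphate transporters Slc20a1 (-3.20, SE 0.28) and Slc20a2 (-1.07, SE 0.32), and the 5′-nucleotidase Nt5e (-3.02, SE 0.41). The higher ones were Smpd3 (2.42, SE 0.39), a sphingomyelinase needed for mineralization, and the phosphate exporter Xpr1 (1.08, SE 0.22). Phospho1, a phosphatase of matrix vesicles, did not pass the filter on low counts.

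Of 5 tested matrix proteins and inhibitors, 1 was higher in the bone-forming cells, the osteocalcin-related Bglap3 (8.01, SE 0.70), and 3 were lower, the mineralization inhibitor Mgp (-2.39, SE 0.34), osteonectin (Sparc, -1.10, SE 0.39) and osteomodulin (Omd, -4.12, SE 0.22). Of 4 genes for the secretory kinases and proteases that act on SIBLING proteins, 3 were higher and none lower, the kinase Fam20c (0.87, SE 0.26) and the proteases Bmp1 (4.13, SE 0.24) and Pcsk5 (3.55, SE 0.40). Both tested genes of late osteoblasts and early osteocytes were higher, Pdpn (3.38, SE 0.64) and Tmem119 (6.13, SE 0.40), whereas the osteocyte genes Sost and Fgf23 did not pass the filter. The means of Pdpn and Fam20c in the bone-forming cells, 74.4 and 58.7 CPM, lay below the 85.7 and 70.4 CPM of the other chondrocyte-like cells. Those of Tmem119 (175 against 3.12 CPM), Bmp1 (441 against 73.6 CPM) and Pcsk5 (248 against 57.9 CPM) lay above. Against the rest, 1 of the 2 late genes was called higher in the bone-forming cells. In the Ibsp-high chondrocytes against the rest, 5 of 19 were higher, namely Smpd3 (1.74, SE 0.37), Ank (1.52, SE 0.23), Slc20a1 (1.67, SE 0.23), Sparc (2.23, SE 0.40) and Omd (3.52, SE 0.20), while 3 were lower and 11 not called (background 30%). Against the other chondrocyte-like cells 6 of 17 were higher and 7 lower (background 50.6%).

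The genes most alike to 3 of the members were found by Pearson's r of log2(CPM + 1) over 54 sums of 1 cluster in 1 library, which share libraries and are a description only. Ibsp ran with Wif1 (r = 0.82), Omd (0.79) and Col5a2 (0.75). Bglap ran with the collagen I genes Col1a1 (0.82) and Col1a2 (0.76) and with Bglap3 (0.79), part of whose sequence it shares. Dmp1 ran with Enpp6 (0.82), Gm11264 (0.80) and Cdh15 (0.78).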

How the data were processed

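The authors aligned the reads to mm10 with Cell Ranger 7.1.0 and deposited, per library, raw UMI counts of 32285 genes in 20307 barcodes called as cells, fewer than the study states, and no cell labels. Barcodes under 200 genes or over 20% mitochondrial UMIs were left out, and the barcodes with the highest Scrublet scores, 0.8% per 1000 cells, were removed as doublets (51, 362 and 837). Cells were clustered with scanpy 1.11.5 (2000 variable genes, 30 components, Leiden resolution 1, then 0.5 for mesenchymal cells), with 33 mineralization genes kept out, and clusters were named from markers. All 10 members are named whatever their result. Counts were summed per library and population and tested with edgeR 4.0.16 (quasi-likelihood, TMM, filterByExpr, library as a block, Benjamini-Hochberg over all genes, threshold 0.05, two-sided), checked on simulated data, with DESeq2 1.42.0 as an alternative. Populations were treated as paired because they come from the same library. The correlation of deviations was 0.05 to 0.17 within a library. It was also 0.05 to 0.14 between replicates 2 and 3, so it does not set these libraries apart. Intervals and limits at a count of 0 (3 UMIs) cover counting error only. The members and lists were chosen with earlier results of these data known.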

Additional observations from a re-analysis of the deposited data

How the results depend on the processing

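Of the members' log2 fold changes under the alternatives, 592 were kept, 29 lost and 11 gained a call, 16 untested ones moved and 11 reversed. A tested value counted as kept if its direction and its side of the threshold stayed the same. An untested value, of Ibsp only, counted as kept if it lay within the main SE of the main value, and otherwise as moved or reversed. Dmp1, Phex, Bglap, Bglap2 and Ifitm5 kept their calls in both comparisons of the bone-forming cells under every alternative. The reversed values were, against the rest, the untested Ibsp in the bone-forming cells (-0.71 at most 10% mitochondrial UMIs), Spp1 in the bone-forming cells (-0.063 with doublets kept, -0.14 with cells thinned to 1000 UMIs), and in the Ibsp-high chondrocytes Phex (-0.16 without the replicate block, -0.24 thinned), Bglap2 (from -0.66 to 0.28 with 1 replicate left out, the last without replicate 1, 2.25 at most 10% mitochondrial UMIs, 0.22 at mesenchymal resolution 1, 0.17 with the members among the variable genes) and Ifitm5 (1.76 at most 10% mitochondrial UMIs), and Ifitm5 against the other chondrocyte-like cells (-1.26 thinned). The cause was not tested. Without the replicate block, calls were lost for Spp1 in the bone-forming cells against the Ibsp-high chondrocytes (edgeR adjusted p = 0.0633) and the rest (0.111) and for Enpp1 in the Ibsp-high chondrocytes against the rest (0.0668). Spp1 between bone-forming cells and Ibsp-high chondrocytes also lost its call without the cell filter and at mesenchymal resolution 1, and Alpl under the last of these and without the cell filter.

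Counts of genes called moved most when a library was left out, to between 2824 and 7843 for bone-forming cells against Ibsp-high chondrocytes, 3016 and 8194 for bone-forming cells against the rest, 1739 and 9605 for Ibsp-high chondrocytes against the rest, and 655 and 9450 against the other chondrocyte-like cells, the highest always without replicate 1. Ibsp-high chondrocytes against the rest gave 2276 without the replicate block, 2565 at mesenchymal resolution 1, 3031 with mesenchymal cells only as the rest and 2609 thinned. Against the other chondrocyte-like cells the count was 7924 with no filter on low counts, 2949 with DESeq2, 2233 at most 10% mitochondrial UMIs, 2437 at mesenchymal resolution 1 and 2734 thinned. Choosing the cluster by hypertrophy markers selected the same cluster, out of the 2 that could be ranked. All values of this alternative therefore equal the main ones, and they are counted among the 592 that were kept. Thinning moved 50 of 60 shares of cells. The thinned sums and the removal of 1 cell, the richest in Ibsp or in Phex, were chosen after seeing the data, and thinning gave no value for Mepe against the other chondrocyte-like cells. Replicate 1 has 32 bone-forming cells, which limits every value of that population there.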
